A study of Homo sapiens with 6 samples.

Results

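Formins are the proteins that build unbranched actin filaments. Their formin homology domains recruit profilin-bound actin and stay on the growing end of the filament, and most of them are held inactive by contacts within the protein until an upstream signal releases them. In migrating cells they supply the filaments of filopodia, stress fibers and the cell cortex, beside the branched networks made by the Arp2/3 complex. The 10 formin genes examined here were *FMNL1*, *FMNL2*, *FMNL3*, *DIAPH1*, *DIAPH2*, *DIAPH3*, *DAAM1*, *DAAM2*, *FHOD1* and *INF2*, found by gene name among the 60655 genes of the count table. The family was chosen by the measured difference of *FMNL3* between the IGF2BP3 IP and IgG IP of these same libraries, and the other genes came in by family name. The difference between IGF2BP3 IP and IgG IP is therefore given for the 10 genes as a description, without a p-value.

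The libraries came from WaGa, an established Merkel cell carcinoma (MCC) cell line of wild-type genotype that was left untreated and grown in RPMI 1640 with fetal bovine serum. Cell lysate was incubated with an antibody against IGF2BP3 (also called IMP3), an RNA-binding protein that affects the stability and translation of its target mRNAs, or with IgG as negative control, and the RNA that came down was sequenced (RIP-seq). Each antibody had 3 libraries, numbered as replicates 1 to 3, and both groups shared cell line, genotype and culture, so the antibody was the labelled difference. All values are levels of RNA in an immunoprecipitate of 1 cell line, and no input RNA was analysed here.

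Library totals ran from 9758759 to 14886414 counts. All 11 Merkel cell carcinoma markers examined, among them *KRT20*, *ATOH1* and *INSM1*, were covered, with 443 to 15857 counts per library. The leukocyte genes *PTPRC* and *CD3E* were at 0 counts in all 6 libraries, the leukocyte markers as a whole had 0 to 4, the endothelial markers had 0 to 8 and the keratinocyte markers 0 to 11. Of the 4 fibroblast markers, *DCN* had 479 to 762 counts per library, while *COL1A1* had 0 to 2 and the rest no more than that. The summed fibroblast markers were at 49.4 to 52.0 normalized CPM in the IgG IP but at 41.6 to 47.0 in the IGF2BP3 IP. That sum was almost wholly *DCN*, so the difference is one of a single gene. Its part in the results was not tested. The replicate 1 libraries of the IgG IP and IGF2BP3 IP shared part of their deviation, and replicate 1 was set apart from the other replicates of its group. Replicates 2 and 3 shared deviation between the IPs about as much across numbers as within the same number.

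Among the formins, 8 of 10 passed the expression filter and 2 did not. *DAAM2*, which like *DAAM1* acts in Wnt signaling, had 0 counts in each of the 6 libraries. A count of 0 allows up to 3 counts, which is 0.202 to 0.307 CPM (counts scaled to a common library size) at these library totals, for counting error only. *DIAPH2*, a diaphanous formin, had 0, 1 and 2 counts in the IgG IP against 0, 0 and 2 in the IGF2BP3 IP. Of the 8 that passed, 2 had few reads. *FMNL1*, the formin best known from leukocytes, had 5 to 20 counts per library, and *FHOD1*, a stress fiber formin, 14 to 35. The other 6 had between 160 and 3606 counts per library.

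The levels of different formins can be set side by side only per length, for which the deposited TPM values, each a share of all transcripts corrected for length, were used. *DAAM1* was highest in the IgG IP with 77.1 ± 24.8 TPM (SD, n = 3), and *DIAPH3*, a formin of cytokinesis and filopodia, followed with 25.2 ± 3.77 TPM (SD, n = 3). Neither of these ranges met that of the next formin in the order. *DIAPH1*, a diaphanous formin, *INF2*, which both assembles and severs filaments, and *FMNL2*, a formin of lamellipodia, came next with 10.8 ± 2.74, 9.65 ± 0.651 and 8.62 ± 2.40 TPM (SD, n = 3), and neighbors among them overlapped. *FMNL3*, a formin of filopodia, stood sixth with 3.78 ± 0.633 TPM (SD, n = 3), below the range of *FMNL2* and above that of *FHOD1*. *FHOD1* and *FMNL1* overlapped each other at 0.670 ± 0.286 and 0.543 ± 0.129 TPM (SD, n = 3). *DAAM1* alone made up between 48.0% and 59.5% of the summed formin TPM of a library.

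The TPM values carried the replicate 1 shift. For *DAAM1*, replicates 1 to 3 had 48.7, 88.4 and 94.2 TPM with IgG against 51.9, 90.8 and 84.8 TPM with the IGF2BP3 antibody. Replicate 1 was thus the lowest library of both groups. The same gene had 217, 242 and 238 normalized CPM in the IgG IP, a much smaller spread. The order also depended on the length used. When normalized CPM were divided by the length of the canonical transcript, a scale added after the TPM values were seen, *INF2* had 2.24 ± 0.153 CPM per kb (SD, n = 3) and *FMNL2* 7.16 ± 0.772 (SD, n = 3), so that *INF2* moved behind *FMNL2* without overlap and met the range of *FMNL3*, 1.82 to 2.18 CPM per kb. For *INF2* the TPM was 4.31 times the CPM per kb, against 1.20 to 2.14 times for the other 7 formins that passed the filter. What separates the 2 scales for *INF2* was not tested.

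**Figure D1:**
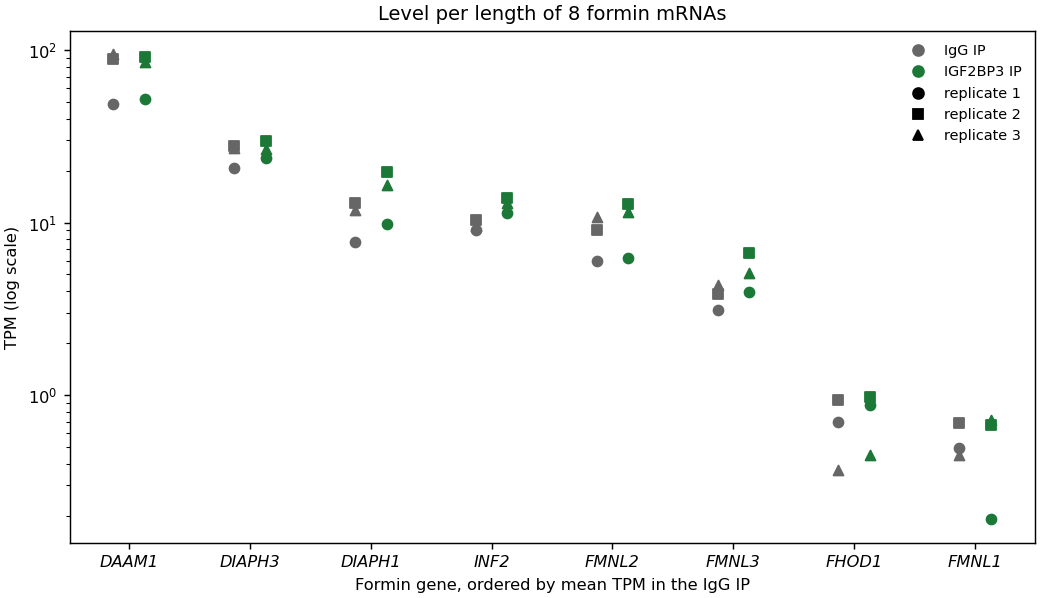
TPM (log axis) of the 8 formin mRNAs that passed the expression filter, ordered by their mean in the IgG IP. Each point is 1 library, grey for IgG IP and green for IGF2BP3 IP, with circles, squares and triangles for replicates 1, 2 and 3. *DAAM1* lies at 48.7 to 94.2 TPM, *FMNL3* at 3.11 to 6.67, and replicate 1 is the lowest *DAAM1* library of both groups.

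*FMNL3* (ENSG00000161791.14) is a minus-strand gene at chr12:49636499-49708165 of GRCh38. Its canonical transcript in GENCODE version 44 has 26 exons and 12625 nt, of which 3081 nt are coding and 9319 nt are 3′ UTR. It is longer than 98.3% of the tested RNAs and the longest of the 10 formins, whose transcripts run from 3813 to 12625 nt. Since IGF2BP proteins are known to favor the letters CAU followed by A, C or U, the transcripts were searched on their own strand for CATA, CATC or CATT, in DNA letters, where matches may share a base. *FMNL3* held 119 matches, which is 9.43 per kb against a median of 10.8 per kb over tested RNAs. *DAAM1* held 11.9 per kb, *DIAPH3* 11.2, *DIAPH1* 8.54, *INF2* 6.69 and *FMNL2* 12.3. The 30 bases with the most matches are shown for *FMNL3*, *INF2*, *DIAPH1*, *DIAPH3* and *DAAM1*, which carry the highest and the lowest well-covered differences, with the matches in capitals, 5′ to 3′ on the transcript strand.

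*FMNL3*, 3′ UTR in exon 26, chr12:49637842-49637871, minus strand: tgccctgCATCCATCctgtatcCATCCATA
*INF2*, 3′ UTR in exon 23, chr14:104720197-104720226, plus strand: cttCATTcCATTtcatggctgaagcaCATT
*DIAPH1*, coding sequence in exon 3, chr5:141587118-141587147, minus strand: ttctgctCATAgaaattcttctgCATCATA
*DIAPH3*, 3′ UTR in exon 28, chr13:59666018-59666047, minus strand: gaaatgactggtgacccCATTatCATCATT
*DAAM1*, 3′ UTR in exon 25, chr14:59369112-59369141, plus strand: tgtatgCATTcaCATTgagtgtggctCATT

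The *FMNL3* stretch holds 4 matches and the others 3 each. A stretch of 30 bases with at least 3 matches was found in 57.5% of 14479 tested transcripts and one with at least 4 in 12.3%, but in 41.3% of the 584 transcripts longer than 10000 nt. These shares also count stretches that cross an exon junction, while each stretch shown was searched for within a single exon. A match describes the letters only and is not a binding site.

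Between IGF2BP3 IP and IgG IP, a comparison that asks which RNAs come down with IGF2BP3, 1 of the 8 formins that passed the filter was past the thresholds, a fold change of at least 1.5 (0.58 on the log2 scale) and an adjusted p-value under 0.05 in edgeR's quasi-likelihood fit over all genes. This was *FMNL3*, the gene for which the family was chosen. Over all 14507 tested RNAs, 1.16% were past the thresholds in this direction and 0% in the other, where the formins had 0 as well. The tallies that follow include *FMNL3*, whose high value in this comparison brought the family in, so they are a description only. The log2 fold change was above 0 in 5 of the 8 formins, against 48.9% of the tested RNAs. The median log2 fold change was 0.07 over the 8 formins and -0.01 over all tested RNAs. For 2 formins, *FMNL3* and *INF2*, the lowest IGF2BP3 IP library exceeded the highest IgG IP library, an order seen in 12.0% of the tested RNAs. The opposite order, seen in 8.69%, was found in 0 of the 8.

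The normalized CPM of *FMNL3* were, for replicates 1 to 3, 27.5, 22.9 and 24.1 with IgG against 35.0, 41.5 and 37.3 with the IGF2BP3 antibody. The lowest IGF2BP3 IP library and the highest IgG IP library were both replicate 1. The means were 24.9 ± 2.39 and 37.9 ± 3.27 (SD, n = 3 each), with a log2 fold change of 0.61 (standard error 0.12), and 4.67% of the tested RNAs had a log2 fold change at least as high. Between libraries of the same number the log2 ratio was 0.35, 0.86 and 0.63 for replicates 1 to 3, so replicate 1 had the smallest difference. Without both replicate 1 libraries the log2 fold change was 0.75. On the TPM scale the groups overlapped, with 3.11, 3.85 and 4.37 TPM in the IgG IP against 3.96, 6.67 and 5.08 TPM in the IGF2BP3 IP, and the difference was 0.37 on the log2(TPM + 1) scale, where the median over all tested RNAs was 0.12.

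**Figure D2:**
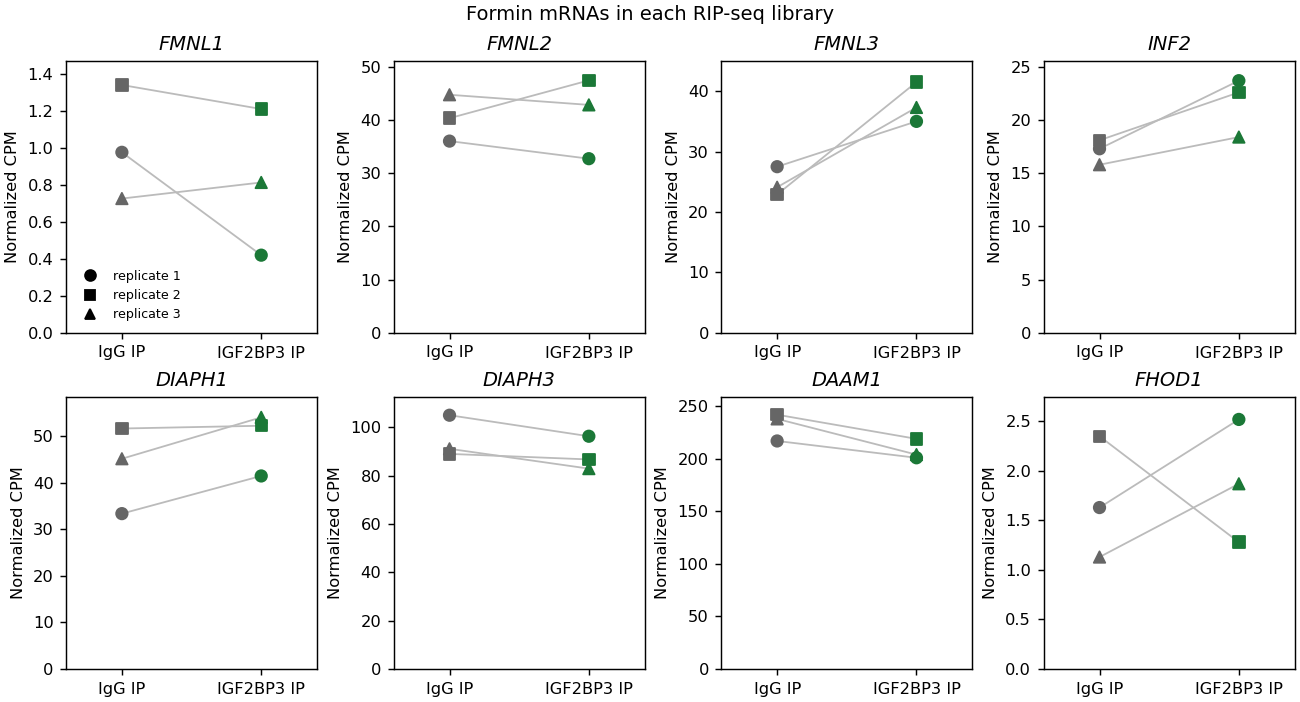
Normalized CPM of 8 formin mRNAs in the IgG IP (grey) and IGF2BP3 IP (green) libraries, 1 panel per gene with an axis from 0. Circles, squares and triangles stand for replicates 1, 2 and 3, and lines join libraries of the same number. *FMNL3* and *INF2* have all IGF2BP3 IP libraries above the IgG IP libraries, and in the other 6 panels the groups overlap.

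RNAs like *FMNL3* in length or GC content had small differences between the IPs. Among the 1693 tested RNAs nearest to it in length, within 10 percentile points, the median log2 fold change was 0.08. Most of these RNAs are shorter than *FMNL3*, which lies near the upper end of the lengths. Among the 2895 nearest in GC content (52.0% for *FMNL3*) the median was 0.04. With a per-library correction for transcript length the log2 fold change of *FMNL3* was 0.44, and with one for GC content 0.53. Both lie under the 1.5-fold minimum, and the adjusted p-value was not under 0.05 in either, so the gene missed both thresholds. The part of length and GC content in the difference was not tested beyond these corrections.

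*FMNL3* also shares sequence with a neighbor. *PRPF40B*, which encodes a splicing factor, lies on the other strand, and 1726 nt of its canonical exons fall within those of *FMNL3*. It had 37 to 52 counts per library, against 254 to 549 on *FMNL3*, with a log2 fold change of 0.07 (standard error 0.25). *TMBIM6*, also on the other strand, overlaps the gene but none of its canonical exons, and differed by 0.05 on the log2 scale (standard error 0.07). Whether reads were counted by strand is not given in the sources used here, so reads from the shared stretch of *FMNL3* and *PRPF40B* cannot be told apart.

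The other FMNL genes gave smaller or uncertain differences. *FMNL2* (ENSG00000157827.20, chromosome 2) had 36.0, 40.3 and 44.7 normalized CPM in the IgG IP against 32.7, 47.4 and 42.8 in the IGF2BP3 IP. Its groups overlapped fully, and the log2 fold change was 0.02 (standard error 0.15). *FMNL1* had 0.976, 1.34 and 0.726 normalized CPM in the IgG IP against 0.420, 1.21 and 0.813 in the IGF2BP3 IP, with a log2 fold change of -0.32 (standard error 0.46). The value rested on single libraries, at -0.02 without IGF2BP3 IP replicate 1 and -0.03 without IgG IP replicate 2, and a 1.5-fold difference was not detectable for *FMNL1* at this depth. The antisense gene *FMNL1-AS1*, which overlaps 541 nt of its exons, had 3 to 11 counts per library, against 5 to 20 on *FMNL1*.

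*INF2* (ENSG00000203485.14) is a plus-strand gene at chr14:104681146-104722535. Its normalized CPM were 17.3, 18.1 and 15.8 in the IgG IP against 23.7, 22.6 and 18.4 in the IGF2BP3 IP. The groups did not overlap, but IGF2BP3 IP replicate 3 and IgG IP replicate 2 were close to each other. The log2 fold change was 0.33 (standard error 0.14), below the 1.5-fold minimum. On the TPM scale the groups were also apart, at 9.10 to 10.4 in the IgG IP against 11.4 to 13.8 in the IGF2BP3 IP. *INF2* has the highest GC content of the 10 formins, 63.1%, and the 2414 tested RNAs nearest to it in GC content had a median log2 fold change of 0.19. Corrected for GC content, *INF2* was at 0.11.

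Of the diaphanous formins, *DIAPH1* (ENSG00000131504.17, chromosome 5) had 33.4, 51.7 and 45.2 normalized CPM in the IgG IP against 41.5, 52.3 and 54.1 in the IGF2BP3 IP. Replicate 1 was the lowest library of both groups, and the groups overlapped. The log2 difference was 0.18 (standard error 0.17), while the same gene was at 0.45 (standard error 0.29) with log2(TPM + 1). On that scale *FMNL3* was lower, at 0.37 (standard error 0.25), and the median over all tested RNAs was 0.12. *DIAPH3* (ENSG00000139734.19, chromosome 13) had 105, 89.0 and 91.1 normalized CPM in the IgG IP against 96.3, 86.7 and 82.9 in the IGF2BP3 IP. The IGF2BP3 IP library was the lower one in each same-numbered pair, with log2 ratios of -0.12, -0.04 and -0.14. The groups overlapped, and the log2 fold change was -0.10 (standard error 0.10).

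*DAAM1* (ENSG00000100592.16, chromosome 14), with 2001 to 3606 counts per library the best covered formin, had 217, 242 and 238 normalized CPM in the IgG IP against 201, 219 and 204 in the IGF2BP3 IP. The groups differed by -0.16 on the log2 scale (standard error 0.08) and overlapped, although the IGF2BP3 IP library was lower in each same-numbered pair, by -0.11, -0.14 and -0.22. *DAAM1* and *DIAPH3* have low GC content, 39.6% and 40.3%, and the tested RNAs nearest to them in GC content had medians of -0.10 and -0.09. *FHOD1* had 1.63, 2.35 and 1.13 normalized CPM in the IgG IP against 2.52, 1.28 and 1.87 in the IGF2BP3 IP. Its same-numbered pairs pointed in both directions, with log2 ratios of 0.63, -0.87 and 0.73, and the log2 fold change was 0.13 (standard error 0.37).

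**Figure D3:**
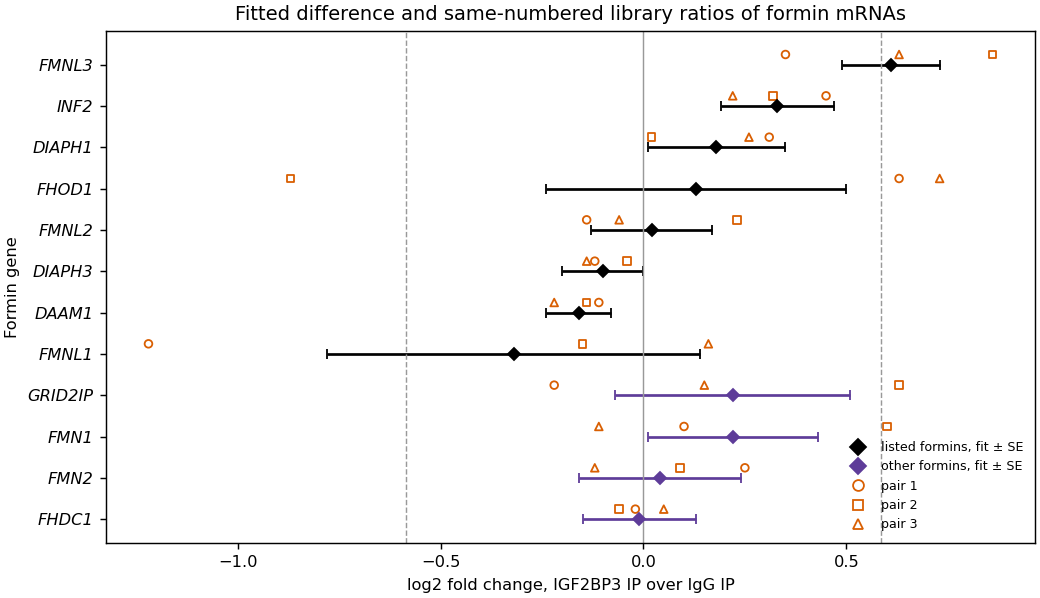
Log2 fold change of IGF2BP3 IP over IgG IP for the 8 listed formins (black) and 4 other formins (purple), from the edgeR fit with bars of 1 standard error. Open orange circles, squares and triangles are the log2 ratios of normalized CPM within replicate pairs 1, 2 and 3, and dashed lines mark a 1.5-fold change. *FMNL3* at 0.61 is the only fitted value of the 12 beyond a dashed line, and pairs of *FMNL1* and *FHOD1* lie far apart.

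Over 21 processing settings, *FMNL3* stayed between 0.37 and 0.75 on the log2 scale and was past the thresholds in 11. Leaving out replicate 2 or 3 of either IP ended that call, with values of 0.54 to 0.61, while leaving out replicate 1 did not. The settings without replicate 2 or 3 left 0 to 23 of all tested RNAs past the thresholds, against 169 with all 6 libraries. *INF2* ran from 0.11 to 0.42 and *DIAPH1* from 0.03 to 0.48, both above 0 in all 21 and past the thresholds in 0. *DAAM1* was below 0 in all 21, from -0.25 to -0.01. *DIAPH3* ran from -0.18 to 0.09 and was above 0 only in the 2 settings on TPM, where it was at 0.09 and the median over all tested RNAs was 0.12 and 0.13. *FMNL2* had both signs, from -0.10 to 0.21, and so did *FHOD1*, from -0.17 to 0.47 over the 19 settings that tested it. *FMNL1* was below 0 in the 18 settings that tested it, from -0.73 without IGF2BP3 IP replicate 2 to -0.02 without IGF2BP3 IP replicate 1. The study named *FMNL3* among its IGF2BP3 targets from these same libraries, so calls by other tests on them are no independent evidence. In DESeq2, the test of the study's methods, *FMNL3* was the only one of the formins past the thresholds, where 2.22% of RNAs were. With the replicate number as a block it was the same, where 3.56% of RNAs were past the thresholds in this direction and 0.103% in the other.

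**Figure D4:**
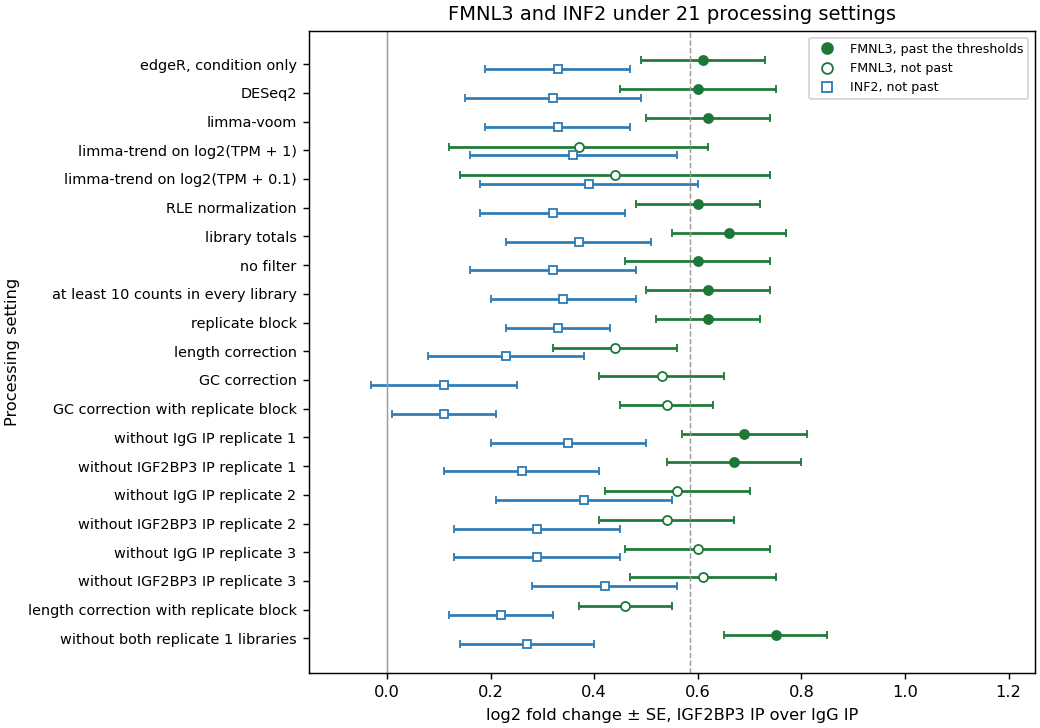
Log2 fold change with standard error of *FMNL3* (green circles, filled where past the thresholds) and *INF2* (blue squares) under 21 processing settings. The solid line marks 0 and the dashed line a 1.5-fold change. *FMNL3* is filled in 11 settings and falls to 0.44 with the length correction and 0.37 with log2(TPM + 1), and *INF2* falls to 0.11 with the GC correction.

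The pattern of *FMNL3* over the 6 libraries was set against that of every tested RNA, as the root mean square difference of log2 CPM centered on each gene's mean. The 3 nearest RNAs were *ATF7* (0.0373), *RNF24* (0.0402) and *ZNF280C* (0.0489). *ATF7*, for example, had 22.7, 20.4 and 21.4 normalized CPM in the IgG IP against 30.1, 35.3 and 32.3 in the IGF2BP3 IP. Of the formins *INF2* was nearest, at 0.219, and 6.11% of the tested RNAs were closer to *FMNL3* than *INF2* was. For the other 6 formins that share was from 34.9% to 94.2%.

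The remaining formins of the human genome were examined as well. *FMN1*, *FMN2*, *FHDC1* and *GRID2IP* passed the filter and *FHOD3*, with 0 or 1 count per library, did not. Of these 4, 0 were past the thresholds (edgeR), and at an unadjusted p-value under 0.05 with a 1.5-fold change the count was also 0. *FHDC1*, which also binds microtubules, had 34.7 ± 4.74 and 34.5 ± 4.95 normalized CPM (SD, n = 3) in IgG IP and IGF2BP3 IP. *FMN1* and *GRID2IP* had the highest log2 fold changes of the 4, both 0.22, with standard errors of 0.21 and 0.29.

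Of the other actin assembly genes, 73 in 8 lists that include these 5 formins, 66 were tested, 1 was higher past the thresholds and 0 were lower (edgeR), beside the 1.16% and 0% of all tested RNAs. Their median log2 fold change was 0.08. At an unadjusted p-value under 0.05 with a 1.5-fold change the counts were also 1 and 0, beside 3.85% and 0.407% of all tested RNAs. In DESeq2 and limma-voom the counts past the thresholds were 1 and 0 as well. The gene past the thresholds was *SRGAP2*, whose product bends membranes in filopodia and can bind FMNL1. It had 19.6, 22.4 and 20.6 normalized CPM in the IgG IP against 33.4, 37.4 and 33.7 in the IGF2BP3 IP, with all IGF2BP3 IP libraries higher. The difference was 0.74 on the log2 scale with a standard error of 0.11. Its Benjamini-Hochberg adjusted p was 0.0197 in the quasi-likelihood test of edgeR and ran from 1.55e-06 to 0.681 over the alternatives. It was 0.0887 and 0.113 without replicates 2 and 3 of the IgG IP, and 0.153 and 0.119 without those of the IGF2BP3 IP. In these settings 0 to 23 of all tested RNAs were past the thresholds, against 169 with every library in the fit. The study itself had listed *SRGAP2* among its enriched RNAs from these libraries, and its value is therefore no independent evidence. *SRGAP2* has near-identical copies, and *SRGAP2B* (0.13) and *SRGAP2C* (-0.04) had log2 fold changes near 0, so its count is uncertain where reads could be shared.

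Among profilins, actins and formin partners, 1 of 13 passed, which was *SRGAP2*. *FSCN1*, the filopodial bundling protein, had 60.5 ± 9.46 and 78.8 ± 4.43 normalized CPM (SD, n = 3), with a log2 fold change of 0.38 and an adjusted p of 0.218 (edgeR). *PFN1*, the main profilin, had 0.25 and an adjusted p of 0.297 (edgeR).

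Of 9 tested subunits of the Arp2/3 complex, which starts branched filaments, 0 were past the thresholds and 1 had a log2 fold change above 0, and the median was -0.10. For the log2 ratio of mean TPM the median was 0.03, where the median over tested RNAs was itself raised to 0.13. *ACTR2*, *ARPC3* and *ARPC1A* had -0.21, -0.19 and -0.16, with adjusted p of 0.37, 0.489 and 0.535 (edgeR). In 3 of the 9 the IGF2BP3 IP libraries were all lower than the IgG IP libraries, beside 8.69% of tested RNAs with that order. *ARPC3* and *ARPC1A* were among these, while the groups of *ACTR2* overlapped. The Arp2/3 activators had 0 of 13 past the thresholds and a median of 0.09, with *CYFIP2* at 0.57 (adjusted p = 0.215), *WASF2* at 0.33 (adjusted p = 0.288) and *WASF1* at 0.14 (adjusted p = 0.549, all edgeR). *CYFIP2* passed the thresholds without IGF2BP3 IP replicate 1. The capping and severing factors had 0 of 14 and a median of -0.05, with *TMOD1* lowest at -0.44 (adjusted p = 0.29, edgeR), the other nucleators 0 of 4 and 0.14, with *LMOD2* at -0.28, and SRF with its MRTF cofactors 0 of 3 and 0.33.

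**Figure D5:**
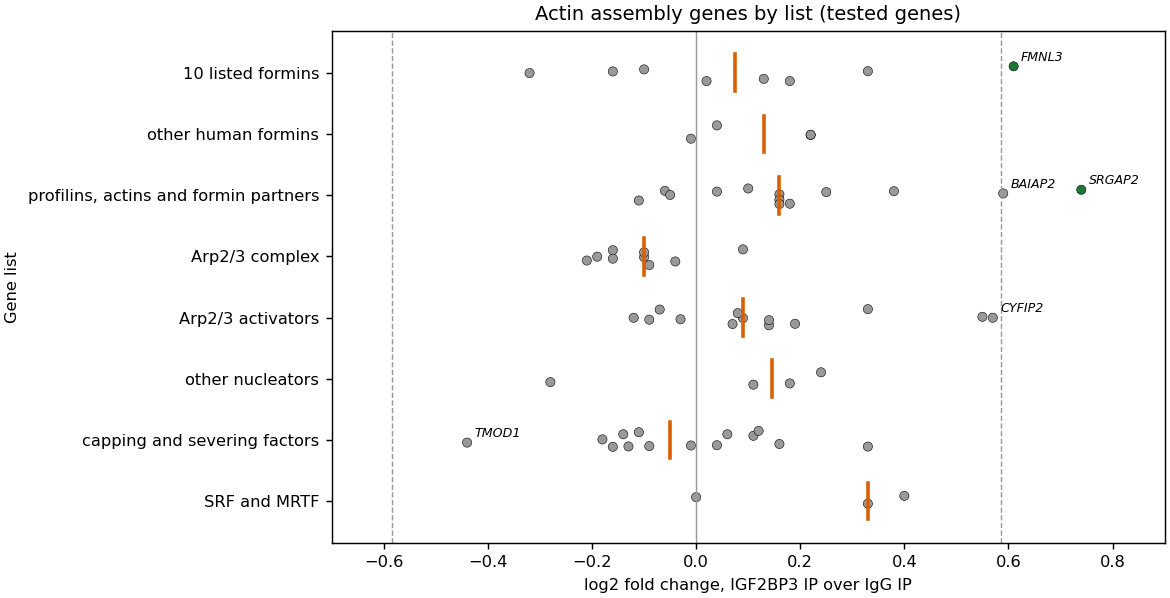
Log2 fold change of IGF2BP3 IP over IgG IP for the tested genes of the 10 listed formins and of 7 lists of actin assembly genes. Each point is a gene, green where past the thresholds, an orange bar marks the list median, and dashed lines mark a 1.5-fold change. *FMNL3* (0.61) and *SRGAP2* (0.74) are the 2 genes past the thresholds, and the Arp2/3 complex has a median of -0.10.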

How the data were processed

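Per the labels and the study's methods, the authors aligned paired-end reads to GRCh38 with STAR 2.7.9a, used RSEM with a GENCODE annotation, and did not pool replicates. The deposited counts are whole numbers per gene, not normalized, and were used for all comparisons except those given on the TPM scale. The TPM values the authors deposited were used for these and for levels per length. Which program counted the reads is not given in the sources used here. Deposited FPKM values were not used.

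Groups came from the sample titles. The whole count table was filtered with filterByExpr, scaled with TMM and fitted with edgeR 4.0.16 in R 4.3.3 (quasi-likelihood test), with no term but the antibody, and p-values were adjusted over all tested genes. A standard error is the fitted log2 value divided by the root of the F statistic. Libraries with the same replicate number had deviations from their group means that correlated across genes at 0.55, 0.26 and 0.22 for replicates 1 to 3. IgG IP replicate 2 and IGF2BP3 IP replicate 3 correlated at 0.26. IgG IP replicate 3 and IGF2BP3 IP replicate 2 correlated at 0.25. Only replicate 1 was thus set apart as matched by number. The replicate number was also fitted as a block. Whether the replicates came from separate cultures is not given in the sources used here, so p-values measure the spread between these libraries. Alternatives were DESeq2 1.42.0, limma 3.58.1 (voom on counts, trend on log2(TPM + 1) and log2(TPM + 0.1)), other scaling and filters, loess corrections (span 0.5) for length and GC content, and leaving out libraries. Annotation came from canonical transcripts of GENCODE version 44, which held 60481 of 60655 gene identifiers. The fits were tested on simulated data.

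The formins, the actin lists and the markers were chosen with earlier results of these data known. The genes named were the 10 formins, genes of the actin lists past the thresholds or among the 3 smallest p-values of a list, genes overlapping a formin, and the 3 RNAs nearest to *FMNL3*. *FHDC1* was named outside this rule. *FHOD3* and the *SRGAP2* copies were added after their values were seen. No table of protein sequences was used here. One of the 8 actin lists and 1 marker gene are counted in the totals but not reported here by name.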

Additional observations from a re-analysis of the deposited data

How the results depend on the processing

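Against 1 formin past the thresholds and 1 of the actin list genes, *FMNL3* and *SRGAP2*, both counts were 0 with limma-trend on log2(TPM + 1) and log2(TPM + 0.1). On each of these scales 3 of all 13377 tested RNAs were past the thresholds, against 169 of 14507 in the edgeR fit with the antibody only. The formin count was 0 with the length correction, the GC correction, the GC correction with the replicate block and, added after seeing the data, the length correction with the replicate block, where the list count was 1. Of all 14479 RNAs tested with the corrections, 142 were higher past the thresholds for length and 81 for GC content. With the replicate block these numbers were 396 and 272. The replicate block alone left the formin count at 1 and the list count at 1, and changed neither gene's call. Leaving out one library gave 0 to 1 formins and 0 to 2 list genes. Both counts were 0 without replicate 2 or replicate 3 of the IgG IP, where *FMNL3* was at 0.56 and 0.60 on the log2 scale, and without replicate 2 or replicate 3 of the IGF2BP3 IP, where it was at 0.54 and 0.61. Over all tested RNAs, the calls in these settings were 19 and 7 for the IgG IP and 0 and 23 for the IGF2BP3 IP. Without IGF2BP3 IP replicate 1 the list count was 2, as it was without both replicate 1 libraries, an alternative added after seeing the data. Counts past the thresholds in the other direction were 0 under every setting run. The median coefficient of variation over IgG IP libraries, for the 7 formins with at least 10 counts in every library, was 25.4% for TPM and 9.63% for CPM. The number of all tested RNAs past the thresholds and higher in the IGF2BP3 IP ran from 0 to 517. The cause of these changes was not tested. Depth limits *FMNL1*, *FHOD1* and *DIAPH2*, with at most 35 counts per library.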
